A study of Mus musculus with 24 samples.

Results

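The expression of 9 transcription factor genes that recur in work on axon regeneration was followed in dorsal root ganglia (DRGs) after sciatic nerve lesion, namely *Sox11*, *Smad1*, *Myc*, *Egr1*, *Klf4*, *Klf5*, *Klf6*, *Klf7* and *Klf9*. They were found by their gene names in the array annotation, which gave 21 probes for these 9 genes out of 41174 probes for 27398 gene names. The samples were whole L4 and L5 DRGs of adult male C57BL/6J mice, either wildtype (WT) or *Nfil3* knockout (KO). The KO is a full deletion, made by crossing floxed mice with a line in which a CMV promoter drives Cre in germ cells, and the same lesion was made in both genotypes. The nerve was cut and rejoined, DRGs were taken 2 or 5 days later, and DRGs of the side without injury served as control. This gave 24 samples in 6 groups of 4 (WT control, WT day 2, WT day 5, KO control, KO day 2 and KO day 5), labelled with Cy3 (replicates 1 and 2) or Cy5 (replicates 3 and 4) and read as single channels of 12 Agilent arrays on 3 slides. The design states that the 4 replicates of a group are biological, but not which control belongs to which lesioned animal.

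Injured sensory neurons switch on a growth program that is led by transcription factors. SOX11 is a developmental factor of immature neurons, SMAD1 carries bone morphogenetic protein signals to the nucleus, MYC drives ribosome production and growth, and EGR1 is an immediate-early factor that cells induce within a short time of stimulation. Krüppel-like factors (KLFs) are zinc-finger proteins that bind CACCC and GC-rich boxes, and in cultured neurons KLF6 and KLF7 favour axon growth whereas KLF4 and KLF9 hold it back. NFIL3 is a repressor that competes with CREB for related DNA sites.

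The promoters of the 3 genes that rose most are shown first, because the study asked whether loss of a DNA-binding repressor alters genes of the regeneration program. Each line is the stretch of 150 bases just before the RefSeq start in GRCm38.p6, written 5′ to 3′ on the gene's strand, with TGACG (the core of the CRE, the site of CREB), GGGCGG (the GC box), CACCC and CACGTG (the E-box that MYC binds) in capitals on either strand. *Sox11* lies on the minus strand at chr12:27342719-27342868, *Smad1* on the minus strand at chr8:79399429-79399578 and *Klf6* on the plus strand at chr13:5861339-5861488.
Sox11: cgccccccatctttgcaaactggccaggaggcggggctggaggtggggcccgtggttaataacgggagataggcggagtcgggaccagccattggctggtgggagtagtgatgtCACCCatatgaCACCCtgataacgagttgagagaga
Smad1: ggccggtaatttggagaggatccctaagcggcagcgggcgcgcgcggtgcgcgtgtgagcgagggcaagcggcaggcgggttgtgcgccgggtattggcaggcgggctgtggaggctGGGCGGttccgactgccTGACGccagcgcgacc
Klf6: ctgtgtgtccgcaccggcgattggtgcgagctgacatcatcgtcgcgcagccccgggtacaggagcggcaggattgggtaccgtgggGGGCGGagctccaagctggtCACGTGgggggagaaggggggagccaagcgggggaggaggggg

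The G and C content of these stretches was 59.3% for *Sox11*, 72% for *Smad1* and 70% for *Klf6*, against a median of 54% over 32851 promoters. A promoter was given for 6 of the 9 genes (not for *Myc*, *Klf5* and *Egr1*), and the search used the whole window from 250 bases before to 50 bases after the start, on both strands. The NFIL3 sites TTACGTAA and TTATGTAA and the full CRE TGACGTCA, which contains TGACG, were in none of the 6 windows. Over all promoters they were in 0.119%, 0.938% and 1.79%. TGACG was in the windows of *Smad1*, *Klf4* and *Klf9* (20.8% of all promoters), and GGGCGG was in those of *Sox11*, *Smad1*, *Klf4*, *Klf6* and *Klf7* (35.7%). CACCC occurred 2 times in the *Sox11* window, 3 times in the *Klf7* window and 1 time in the *Klf9* window (57.5% of all promoters), and CACGTG was in the windows of *Klf4* and *Klf6* (7.15%). These are matches of letters only.

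Some facts of the whole series bear on the values. Between 54.5% and 72.3% of probes were well above background in a sample. *Nfil3* checks the genotype labels. Its log2 intensity was 8.44 to 9.01 in WT controls and 10.35 to 11.09 in lesioned WT samples, and 2.82 to 6.23 in 11 KO samples, of which 4 were marked as well above background. The remaining KO sample, KO control replicate 4, gave 7.59 and was marked as well above background. It was nearer to the lowest WT control (8.44) than to the highest other KO sample (6.23), so this check did not settle its genotype label. The title of that sample says control whereas another label field says day 5, so it was kept as control. Counts over the 9 genes, on the brightest probe of each, were also made without it and with it in KO day 5. The other counts below, such as those of related genes, cell type markers and all probes, were made only with it as control. *Sox11* was 6.68 in KO control replicate 4, inside the range of the other KO controls (6.25 to 6.81), whereas KO day 5 samples had 10.08 or more. All 7 neuron markers were well above background in every sample, but so were all 7 macrophage, all 4 satellite glia and all 4 Schwann cell markers, so the label "neurons" describes whole ganglia. In such bulk tissue, fewer cells of a type and less RNA per cell cannot be told apart.

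After the lesion, *Sox11*, *Klf6* and *Smad1* were higher in every lesioned sample than in any control. The share of all probes with such a separation was not counted, here or for the separations named below. *Myc* and *Klf7* rose by smaller amounts, *Klf5* fell, and *Egr1*, *Klf4* and *Klf9* did not pass the test. Taken on the brightest probe of each gene and averaged over WT and KO, 5 of 9 genes were higher and 1 was lower at day 2 (limma, Benjamini-Hochberg adjusted p under 0.05 over all probes), and the count at day 5 was also 5 higher and 1 lower. Among all 41174 probes, 9.33% were higher and 11.8% lower at day 2, and 9.6% were higher and 12.6% lower at day 5. The same shares stand beside the counts of related genes and cell type markers given below. The median change over the 9 genes was 0.25 on the log2 scale at both days, against -0.02 and -0.04 over all probes. The counts stayed at 6 of 9 on both days without KO control replicate 4, and also with it in KO day 5.

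**Figure D1:**
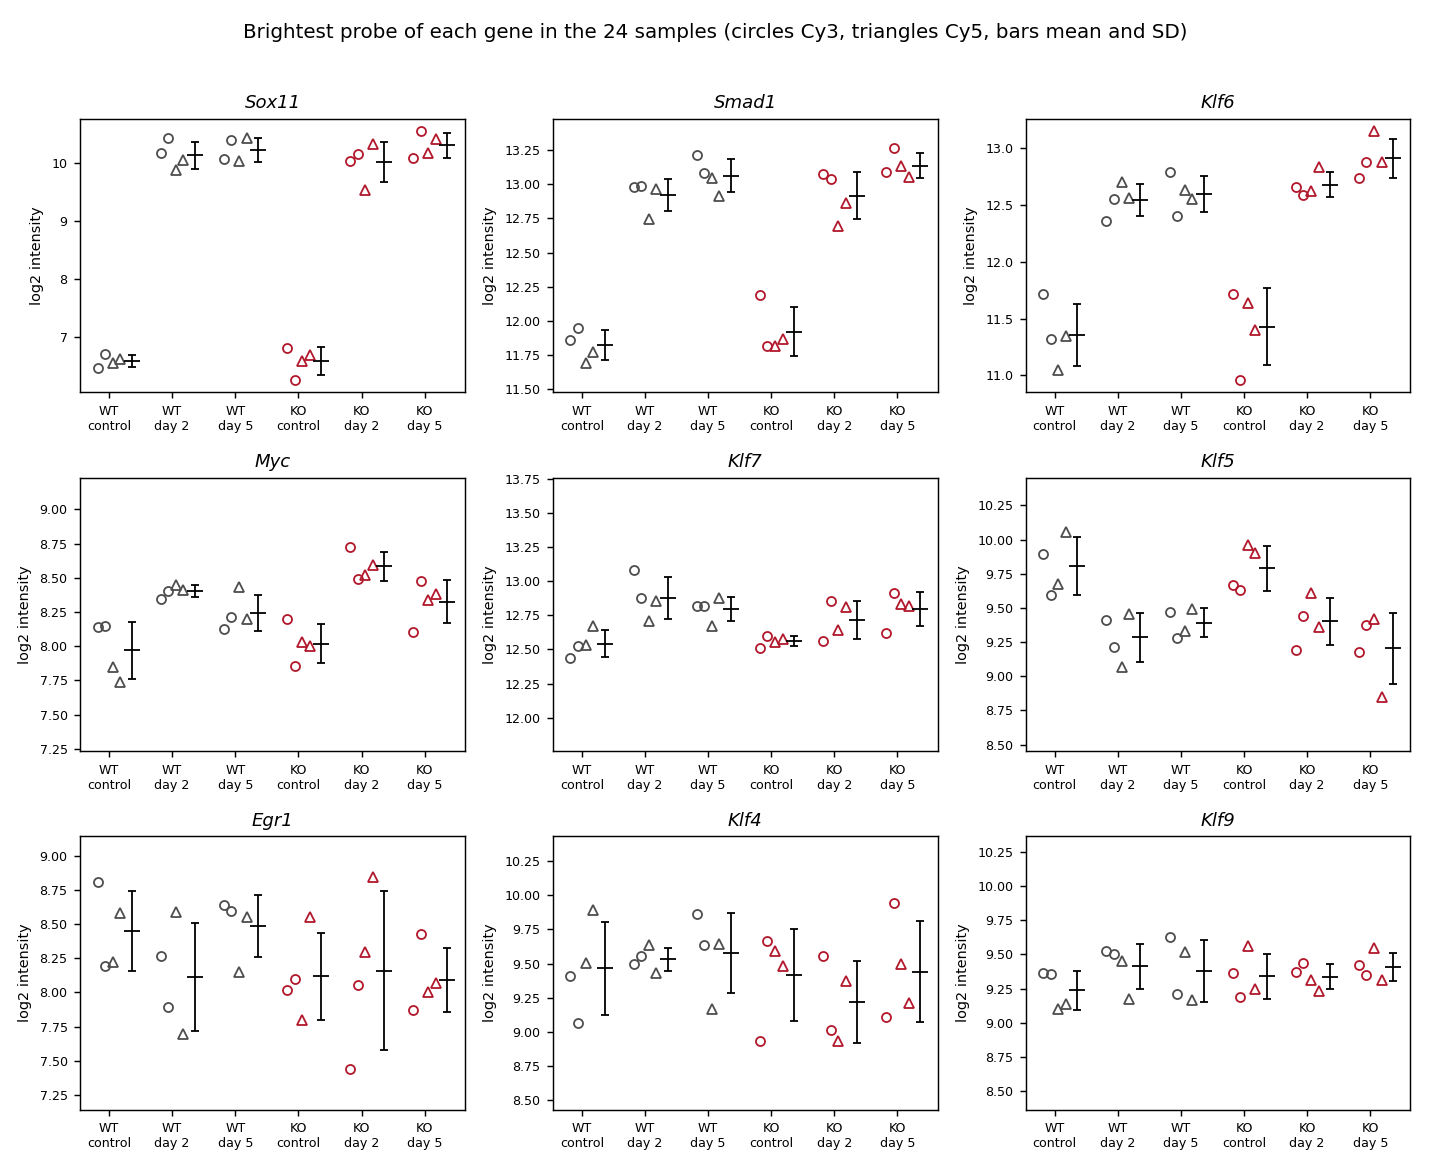
Log2 intensity of the brightest probe of each gene (y axis) in the 24 samples, by group (x axis), with circles for Cy3, triangles for Cy5 and the group mean with SD (n = 4) at the right of each group. Lesioned samples lie above all controls for *Sox11*, *Smad1* and *Klf6*, while the 6 groups overlap for *Egr1*, *Klf4* and *Klf9*. The y axes differ between genes.

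*Sox11* showed the largest change of the 9 genes. On its brightest probe (A_51_P283516, chr12:28022857-28022916 in mm9, minus strand) the log2 intensity in WT mice was 6.46, 6.71, 6.54 and 6.62 in replicates 1 to 4 of the controls, 10.17, 10.44, 9.88 and 10.05 at day 2, and 10.07, 10.39, 10.03 and 10.43 at day 5. The KO controls had 6.81, 6.25, 6.57 and 6.68, and the lesioned KO samples had 10.03, 10.15, 9.54 and 10.33 at day 2, and 10.08, 10.55, 10.17 and 10.41 at day 5. The lowest lesioned sample (9.54) was far above the highest control (6.81). Averaged over the genotypes, *Sox11* rose by 3.50 on the log2 scale at day 2 (SE 0.12, 11.3-fold, limma adjusted p = 4.28e-14) and by 3.69 at day 5 (SE 0.12, 12.9-fold, adjusted p = 9.55e-15). Only 26 of the 41174 probes had a larger called rise at day 2, and 33 at day 5. Both counts include another *Sox11* probe, A_52_P160955, with rises of 3.56 and 3.80.

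The WT and KO rises of *Sox11* were close to each other. At day 2 they were 3.56 in WT and 3.43 in KO (SE 0.17 each), and at day 5 they were 3.65 and 3.72. The difference of the 2 rises (KO minus WT) was -0.12 at day 2 and 0.07 at day 5, with an SE of 0.23, and did not pass (limma F test of both, adjusted p = 1). Within the slides the rise was 2.92 to 3.84 at day 2 and 3.47 to 3.94 at day 5. Controls whose array carried a lesioned sample in the other channel had 6.62 to 6.81, and those beside another control had 6.25 to 6.57, so these 2 sets of 4 did not overlap. With the array partner as a block the rises were 3.51 and 3.70.

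*Sox11* is reported by 6 probes, and the size of the change depended on the probe. Those at 1567, 4093, 6887 and 7409 bases downstream of the 5′-most mapped probe gave rises of 2.91, 3.50, 3.38 and 3.56 at day 2 and of 3.099, 3.69, 3.59 and 3.80 at day 5. The unmapped probe A_52_P114703 gave 3.45 and 3.50. The 5′-most probe, A_52_P608516 (chr12:28026950-28027009), gave only 0.81 and 1.03 on these days (limma adjusted p = 5.14e-05 and 2.25e-06). It was also the dimmest *Sox11* probe, with control values from 4.24 to 4.86 and lesion values from 5.09 to 5.95, and had the highest G and C content (61.7% against 35% to 45%). All 6 probes put every lesioned sample above every control, so they share a direction and not a size.

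**Figure D2:**
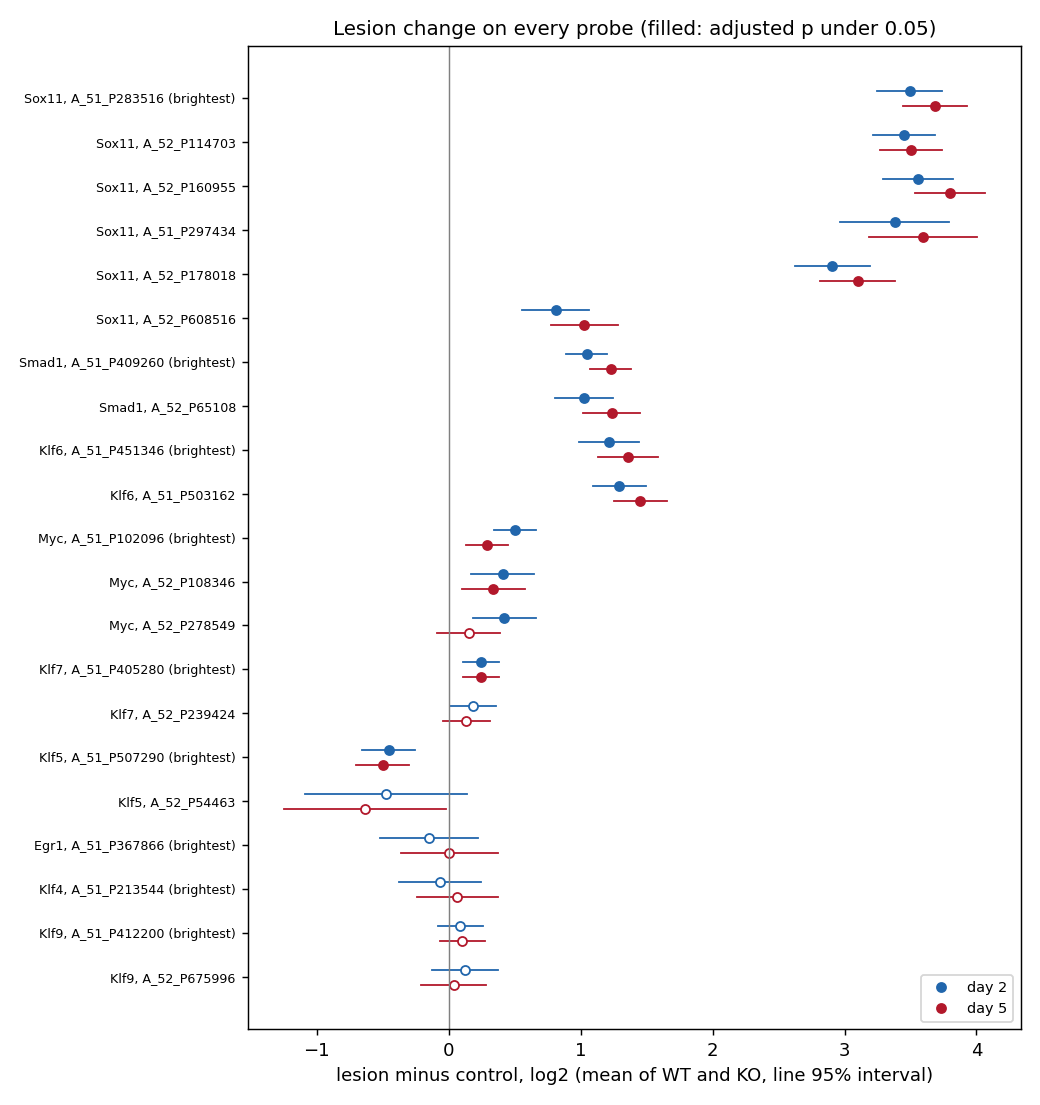
Lesion minus control on the log2 scale (x axis, mean of WT and KO, lines are 95% intervals without adjustment for many tests) for all 21 probes at day 2 (blue) and day 5 (red), with filled points for a limma adjusted p under 0.05. *Sox11* probes lie between 2.91 and 3.80 except the 5′-most one at 0.81 and 1.03, and the intervals of *Egr1*, *Klf4* and *Klf9* cross 0.

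*Smad1* rose about 1 log2 unit. Its brightest probe (A_51_P409260, chr8:81863418-81863474 in mm9) gave 11.86, 11.95, 11.70 and 11.78 in WT controls, 12.98, 12.99, 12.74 and 12.97 at day 2, and 13.21, 13.08, 13.04 and 12.91 at day 5. KO mice had 12.19, 11.81, 11.82 and 11.87 in controls, 13.07, 13.04, 12.69 and 12.86 at day 2, and 13.09, 13.26, 13.13 and 13.05 at day 5. The lowest lesioned sample (12.69) stood above the highest control (12.19). The change was 1.05 at day 2 (SE 0.07, 2.07-fold, limma adjusted p = 2.62e-09) and 1.23 at 5 days (2.34-fold, adjusted p = 1.61e-10), and the second probe, 400 bases further downstream, gave 1.03 and 1.24. In WT the rise was 1.10 and 1.24, and in KO it was 0.99 and 1.21.

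The other genes of the SMAD pathway did not follow *Smad1* as a group. Of 10 listed genes, 1 was higher and 4 were lower at day 2, and 2 were higher and 6 were lower at day 5, with a median of -0.44 at day 5. *Smad5*, which transmits the same signals as *Smad1*, rose by 0.28 at day 5 (limma adjusted p = 0.00118), and *Smad4*, the common partner, rose by 0.28 (adjusted p = 0.0259). The inhibitory *Smad6* and *Smad7* fell by 0.52 (adjusted p = 0.0174) and 0.70 (adjusted p = 0.00277). The *Id* genes are known targets of this pathway, and *Id1*, *Id2* and *Id3* fell by 0.79, 0.76 and 0.37 at day 5 (adjusted p = 0.000359, 3.59e-06 and 0.00366). *Smad9* fell by 0.70 (adjusted p = 0.000445). At day 5, *Smad1* was thus higher while the 2 inhibitory SMADs and the 3 *Id* genes were lower in the same samples.

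*Klf6* was the KLF with the largest rise. On its brightest probe (A_51_P451346, chr13:5869371-5869430 in mm9) WT controls had 11.71, 11.32, 11.05 and 11.35, WT day 2 samples had 12.36, 12.55, 12.70 and 12.56, and WT day 5 samples had 12.79, 12.40, 12.63 and 12.56. KO controls had 11.71, 10.96, 11.64 and 11.40, KO day 2 samples had 12.66, 12.59, 12.62 and 12.84, and KO day 5 samples had 12.73, 12.88, 13.15 and 12.88. No lesioned sample was below 12.36 and no control above 11.71. *Klf6* rose by 1.21 at day 2 (SE 0.11, 2.32-fold, limma adjusted p = 7.79e-08) and by 1.36 at day 5 (2.56-fold, adjusted p = 1.07e-08). The probe 2665 bases upstream gave 1.29 and 1.45.

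*Klf7*, the closest relative of *Klf6*, rose by much less. Its brightest probe (A_51_P405280, chr1:64125344-64125403 in mm9) gave 12.43 to 12.67 in WT and 12.51 to 12.60 in KO controls, 12.71 to 13.08 in WT and 12.56 to 12.85 in KO samples at day 2, and 12.67 to 12.88 in WT and 12.62 to 12.92 in KO samples at day 5. The change was 0.25 at both days (SE 0.07, 1.19-fold, limma adjusted p = 0.00923 and 0.00832), and lesioned and control samples overlapped. The second probe, 45206 bases downstream, gave 0.18 and 0.13 and did not pass (adjusted p = 0.143 and 0.323). The call for *Klf7* thus rests on 1 of its 2 probes.

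*Klf5* moved the other way. The probe A_51_P507290, whose annotated span of chr14:99702656-99712388 in mm9 is longer than its 60 bases, gave 9.89, 9.60, 9.68 and 10.06 in WT controls and 9.67, 9.63, 9.96 and 9.90 in KO controls. At day 2 it gave 9.41, 9.21, 9.07 and 9.45 in WT and 9.19, 9.44, 9.61 and 9.36 in KO, and at day 5 it gave 9.47, 9.28, 9.33 and 9.49 in WT and 9.18, 9.37, 9.42 and 8.85 in KO. All 8 day 5 samples lay below all 8 controls, while 1 KO sample of day 2 (9.61) lay above the lowest control (9.60). *Klf5* fell by 0.46 at day 2 (SE 0.10, limma adjusted p = 0.00172) and by 0.50 at day 5 (SE 0.10, adjusted p = 0.000594). The dim second probe, well above background in 18 of 24 samples, gave -0.47 and -0.64 with an SE of 0.29 and did not pass. When the probes of a gene were averaged, the day 2 call was lost (-0.46, adjusted p = 0.0626).

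*Klf4* and *Klf9*, the KLFs known to restrain axon growth, did not pass at either day. *Klf4* (A_51_P213544, chr4:55540833-55540892 in mm9) ranged from 8.93 to 9.89 in controls and from 8.93 to 9.94 in lesioned samples. Its change was -0.07 at day 2 (95% interval -0.38 to 0.24) and 0.07 at day 5 (-0.24 to 0.38). *Klf9* (A_51_P412200, chr19:23240138-23240197 in mm9) ranged from 9.10 to 9.56 in controls and from 9.17 to 9.63 in lesioned samples, and its change was 0.09 (-0.08 to 0.26) and 0.10 (-0.07 to 0.28). On these probes the intervals leave room for changes of up to 0.38 in size on the log2 scale for *Klf4* and 0.28 for *Klf9*. The second *Klf9* probe gave 0.12 (-0.13 to 0.37) and 0.04 (-0.21 to 0.29), so its intervals reached further. Its day 2 change was 0.36 in WT and -0.12 in KO (limma adjusted p = 0.216 and 0.746).

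Of 12 other KLF genes, 1 was higher at day 2 and 2 were higher at day 5, next to 9.33% and 9.6% of all probes. These were *Klf11* at day 2 (0.24, limma adjusted p = 0.0485), and *Klf10* and *Klf13* at day 5 (0.44, adjusted p = 0.00185, and 0.38, adjusted p = 0.0215). None was lower. *Klf14* was well above background in no sample, and 9 of the 12 genes were so in all 24. The median over the 12 genes was 0.17 at day 2 and 0.02 at day 5.

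*Myc* rose moderately and by more at day 2. Its brightest probe (A_51_P102096, chr15:61821516-61821576 in mm9), spotted 10 times on each array, gave 8.14, 8.15, 7.85 and 7.74 in WT controls, 8.35, 8.41, 8.45 and 8.41 at day 2, and 8.13, 8.21, 8.43 and 8.20 at day 5. In KO mice it gave 7.86 to 8.20 in the 4 controls, 8.73, 8.49, 8.52 and 8.59 at day 2, and 8.11, 8.47, 8.34 and 8.38 at day 5. Every day 2 sample was above every control, but day 5 samples overlapped with controls. The rise was 0.50 at day 2 (SE 0.08, 1.41-fold, limma adjusted p = 6.55e-05) and 0.29 at day 5 (1.22-fold, adjusted p = 0.00778). The SD between the spots of this probe within a channel was 0.22 to 0.32, and the SD between the 4 samples of a group, each a mean over 9 or 10 spots, was 0.04 to 0.21. The other *Myc* probes gave 0.41 and 0.42 at day 2 (both called) and 0.34 (called) and 0.15 (adjusted p = 0.427) at day 5.

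The level of *Myc* was 0.21 lower at day 5 than at day 2 on this probe, which did not pass (unadjusted p = 0.0122, limma adjusted p = 0.165, 95% interval -0.37 to -0.05). No member passed in the comparison of the 2 days (0 of 9, and 3 of 21 probes with an unadjusted p under 0.05), in which 3.08% of all probes were called. *Smad1* was 0.18 higher at day 5 (unadjusted p = 0.0257, adjusted p = 0.242). *Sox11*, *Klf6* and *Klf7* differed by 0.19, 0.14 and 0.00 between the days and also did not pass.

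None of 9 genes of the MYC network (*Mycn*, *Mycl*, *Max*, *Mxd1*, *Mxd3*, *Mxd4*, *Mxi1*, *Mnt* and *Mlx*) passed at day 2 or day 5 (limma, 2 with an unadjusted p under 0.05 at day 2, *Mxd3* and *Mxd4*). Among 8 genes known as MYC targets, 3 were higher at day 2, and 3 were higher and 1 was lower at day 5. *Odc1*, the first enzyme of polyamine synthesis, rose by 1.33 and 1.25 (limma adjusted p = 4.48e-10 and 8.14e-10), and the nucleolar factors *Nop58* and *Nop56* rose by 0.44 and 0.32 at day 2 and by 0.26 and 0.20 at day 5. The glycolytic *Ldha* was lower at day 5 (-0.43, adjusted p = 0.0161), and *Ncl*, *Npm1*, *Fbl* and *Cad* passed at neither day.

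*Egr1* did not pass on its single probe (A_51_P367866), and its samples were widely spread. It ranged from 8.20 to 8.80 in WT and from 7.80 to 8.55 in KO controls, from 7.70 to 8.59 in WT and from 7.44 to 8.84 in KO samples at day 2, and from 8.15 to 8.64 in WT and from 7.87 to 8.42 in KO samples at day 5. The change was -0.15 at day 2 (SE 0.18, 95% interval -0.52 to 0.22) and 0.00 at day 5 (-0.37 to 0.37). Among its relatives, *Egr3* was higher at day 5 (0.47, limma adjusted p = 0.0159), and *Egr2* gave 0.61 at day 2 (adjusted p = 0.0525). In contrast, 6 of 8 other immediate-early genes were higher at both days. *Dusp1* rose by 1.17 and 0.93, *Fos* by 0.99 and 0.74 (adjusted p = 2.42e-05 and 0.000429) and *Junb* by 0.83 and 0.52, and *Btg2* and *Arc* rose by 0.90 and 0.81 at day 5. *Fosb* and *Nr4a1* passed at neither day.

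Among 8 other SOX genes, *Sox9* rose by 1.19 at day 2 (2.29-fold, limma adjusted p = 4.8e-05) and by 1.40 at day 5 (2.64-fold, adjusted p = 5.68e-06). *Sox4*, the closest relative of *Sox11* on the list, gave -0.05 and 0.03. *Sox12*, of the same subgroup, was 0.31 higher at day 2 (adjusted p = 0.0312) and gave 0.05 at day 5, and *Sox8* was 0.57 lower at day 2 (adjusted p = 0.0054) and gave 0.15 at day 5. *Sox2*, *Sox5*, *Sox6* and *Sox10* passed at neither day.

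**Figure D3:**
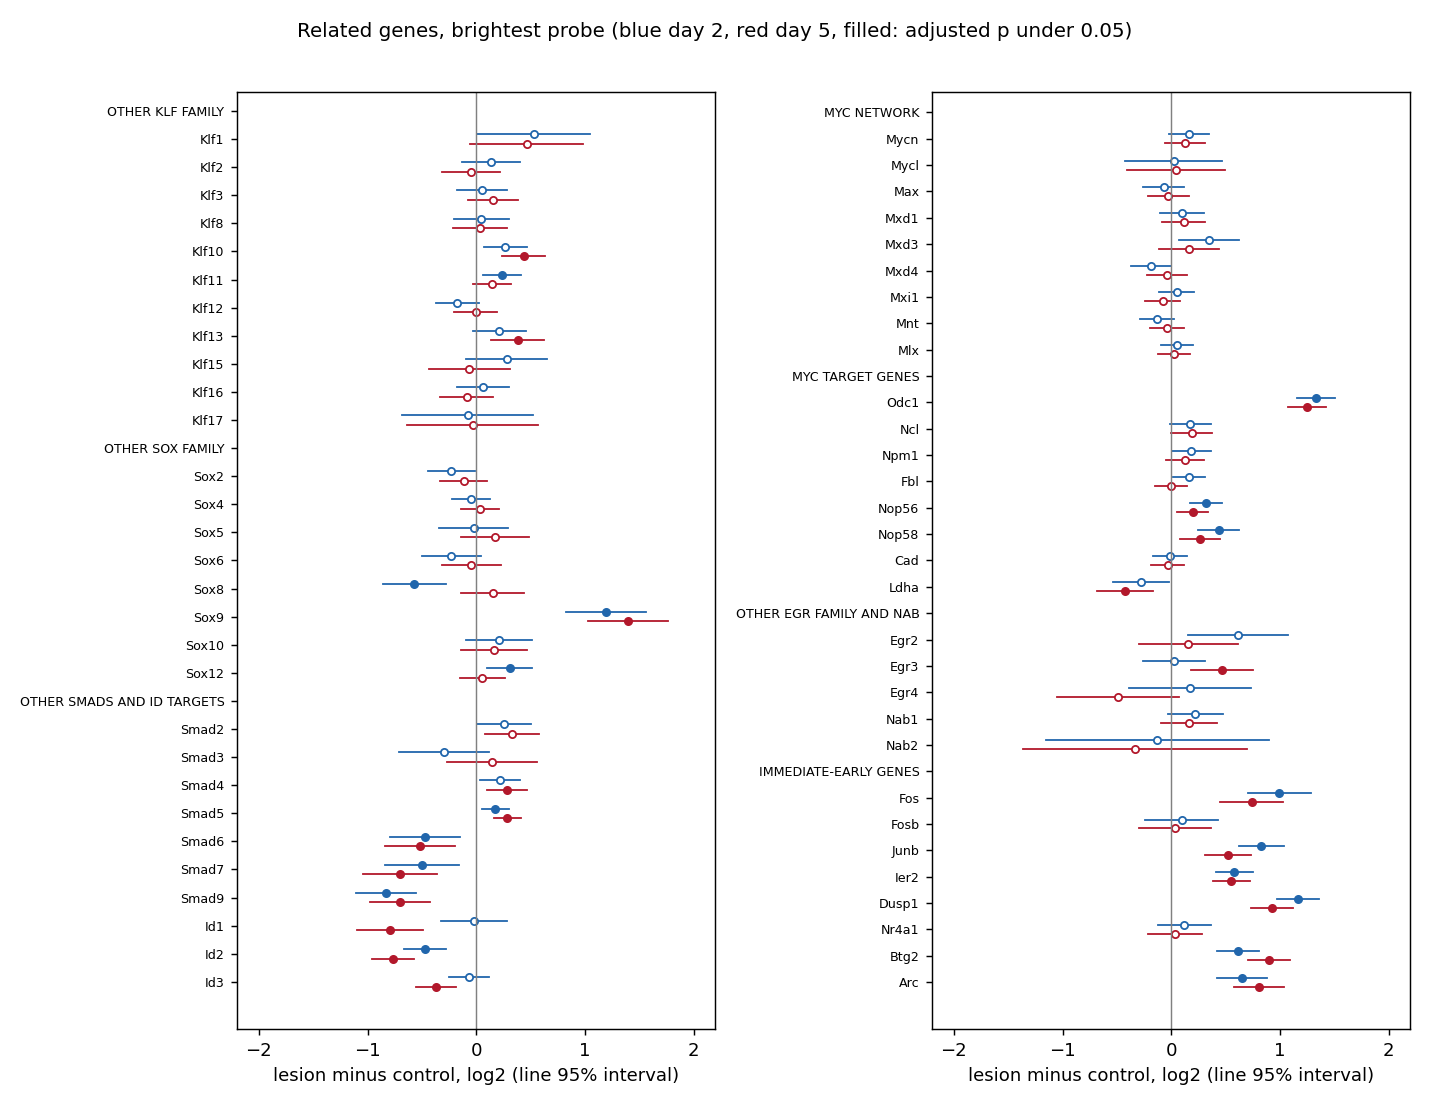
Lesion minus control on the log2 scale (x axes, mean of WT and KO, lines are 95% intervals without adjustment for many tests) for the listed relatives and targets, on the brightest probe of each gene, at day 2 (blue) and day 5 (red), with filled points for a limma adjusted p under 0.05. *Sox9* and *Odc1* lie above 1, all 8 immediate-early genes lie to the right of 0 on both days, 6 of them with filled points, and *Smad6*, *Smad7*, *Smad9* and the 3 *Id* genes lie to the left at day 5. *Klf14*, not above background, is left out.

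Markers of some cell types moved with the lesion as well. Of the 4 satellite glia markers, 2 were higher and 2 were lower at day 2, and 2 were higher and 1 was lower at day 5. In each of the Schwann cell, endothelial, fibroblast and blood lists, at most 1 marker passed at either day. At 2 days, 4 of 7 macrophage markers were higher, and at day 5 all 7 were. Their summed linear intensity was 1174 to 2163 in controls, 1656 to 3291 at day 2 and 3834.5 to 5721 at day 5. Of the 7 neuron markers, 5 were lower at day 2, and 4 were lower and *Tubb3* was higher at day 5. Their summed intensity was 321860 to 365530 in controls, 286810 to 342800 at day 2 and 280340 to 351630 at day 5. The part of these shifts in the changes of *Sox11*, *Smad1*, *Klf6*, *Myc*, *Klf7* and *Klf5* was not tested.

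The lesion was also tested within each genotype, with 4 samples a group. In WT, 6 of 9 passed at day 2 (*Sox11*, *Smad1*, *Klf6*, *Myc* and *Klf7* higher, *Klf5* lower, with 9.99% of all probes called) and 3 passed at day 5 (*Sox11*, *Smad1* and *Klf6*, with 12.9% called). In KO, 4 passed at day 2 (*Sox11*, *Smad1*, *Klf6* and *Myc*, with 10.9% called) and 4 at day 5 (*Sox11*, *Smad1* and *Klf6* higher and *Klf5* lower, with 11.7% called). Passing in only 1 genotype does not show a difference. At day 2 *Klf7* gave 0.34 in WT (limma adjusted p = 0.0219) and 0.15 in KO (adjusted p = 0.334), and at day 5 *Klf5* was 0.41 lower in WT (adjusted p = 0.0511) and 0.59 lower in KO (adjusted p = 0.00685). With KO control replicate 4 placed in KO day 5, the *Klf5* calls in KO at day 5 and in WT at day 2 were lost. That sample had 9.90 for *Klf5*, inside the range of the other KO controls and above every KO day 5 sample. Both genotypes had controls of their own, and the test of the difference between them found no member (smallest unadjusted p over 21 probes 0.104, on the second *Klf9* probe, with 0% of all probes called for the interaction).

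The deletion of *Nfil3* left no called difference in these 9 genes. KO minus WT passed for 0 of 9 genes at each of the 3 times, and over all probes 0% were called in controls and 0.0121% at each of the 2 days, with 724, 1577 and 1018 probes at an unadjusted p under 0.05. The deleted gene, *Nfil3*, was thus itself not called in controls, although its mean log2 intensity was 8.65 in WT and 4.67 in KO controls. It was not called for the interaction either. A count of 0 therefore says little about the size of a difference, for which the intervals are given. On the brightest probes the 27 differences ran from -0.39 (*Egr1*, day 5) to 0.31 (*Klf6*, day 5), each with a limma adjusted p of 1, and none had an unadjusted p under 0.05. For *Sox11* KO minus WT was 0.00 in controls (95% interval -0.35 to 0.35), -0.12 at day 2 (-0.47 to 0.22) and 0.07 at day 5 (-0.27 to 0.42). *Smad1* gave 0.10 (-0.12 to 0.32), 0.00 (-0.22 to 0.22) and 0.07 (-0.15 to 0.29). The intervals were widest for *Egr1*, with -0.91 to 0.13 at day 5.

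*Klf6* at day 5 came nearest to a difference. KO minus WT was 0.31 on the brightest probe (95% interval -0.01 to 0.64, unadjusted p = 0.0542) and 0.35 on the other (0.06 to 0.63, unadjusted p = 0.0194, the only one of 63 comparisons under 0.05), with limma adjusted p = 1 for both. On the brightest probe 1 WT sample (12.79) lay above the lowest KO sample (12.73). KO control replicate 4 had 11.40 on this probe, inside the range of the other KO controls and below every KO day 5 sample. With this sample placed in KO day 5 all the same, the difference was 0.01. *Myc* at day 2 gave 0.18 (-0.04 to 0.40, limma unadjusted p = 0.11). All 4 KO samples (8.49 to 8.73) lay above all 4 WT samples (8.35 to 8.45), but how many of all probes do so was not counted. The other *Myc* probes gave 0.24 and -0.01 with overlapping samples.

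**Figure D4:**
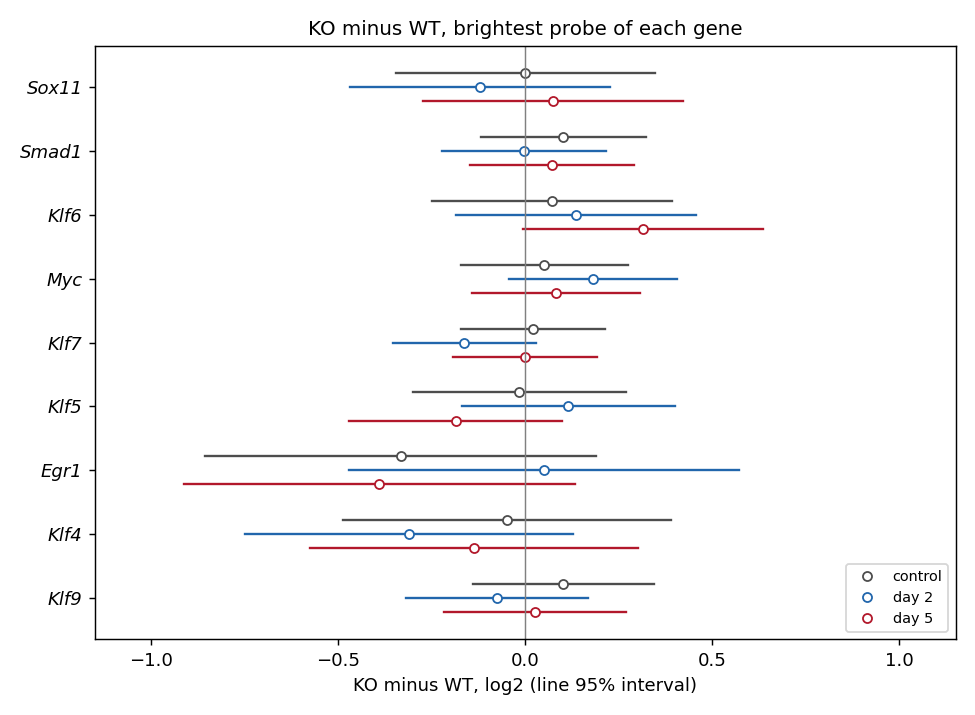
KO minus WT on the log2 scale (x axis, lines are 95% intervals without adjustment for many tests) for the brightest probe of each gene in control (grey), day 2 (blue) and day 5 (red) DRGs, 4 samples per group. All 27 intervals include 0, and the widest are those of *Egr1*.

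Over the 24 samples, the genes closest in pattern to each member were sought among 21528 probes that were well above background in all samples, as a description by Pearson's r. The samples share the split into control and lesion, and pairs of them share an array. For *Sox11* the nearest were *Sema6a*, *Adam8* and *Flrt3* (r = 0.996, 0.994 and 0.994), which changed by 3.24, 3.05 and 3.44 at day 5. For *Smad1* they were *Cacna2d1*, *Epb4.1l4a* and *Tnfrsf12a* (0.984, 0.982 and 0.981), and for *Klf6* they were *Ptp4a1*, *Zfp655* and *Tmem43* (0.969, 0.967 and 0.967).

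Closeness was lower for the other members. For *Myc* the nearest were *Gins1*, *Atf1* and *Slbp* (r = 0.91, 0.907 and 0.905), for *Klf5* they were *Nek3*, *Boc* and *Ppp1r1a* (0.873, 0.873 and 0.866) and for *Klf7* they were *Tbc1d20*, *Cyb561d1* and *Prkab2* (0.852, 0.85 and 0.839). For *Klf4* they were *Fzd2*, *Nfatc4* and *Col8a1* (0.865, 0.848 and 0.837), for *Klf9* *Prpf31*, *Spns1* and *Ipo4* (0.798, 0.779 and 0.767) and for *Egr1* *Phf11*, *Shisa5* and *Serping1* (0.637, 0.635 and 0.622).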

How the data were processed

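The authors amplified and labelled RNA of the DRGs and hybridized the product to 2-color Agilent 4x44K arrays, with a different sample in each channel. The deposited files are the output of Agilent Feature Extraction (10.7.3.1), in which each spot has, for each channel, the intensity of the foreground and of the background, without normalization. Everything after that was computed here with limma 3.58.1 in R 4.3.3. As in the study, Edwards background correction was applied (mean foreground, median background), and the log2 intensity of 24 channels was quantile normalized. Control spots and outlier spots were left out, and spots of a probe were averaged. With lmFit and eBayes, the mean of each of the 6 groups was estimated over all 24 samples, and Benjamini-Hochberg adjustment ran over 41174 probes (threshold 0.05). The number of arrays limits the precision. Each gene was counted by its brightest probe over all samples. The time*genotype interaction is the joint test of both differences between lesion changes.

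The genes and lists were chosen with earlier results of these data known. Named genes are the members, *Nfil3*, list genes with the largest day 5 changes (others were named after their values were seen) and the 3 genes closest to each member. Probe coordinates come from the array files (mm9), and promoter sequences are from RefSeq (GRCm38.p6). The fit was tested on simulated data. Alternatives covered the background correction, normalization, outliers, dim probes, probe averaging, dye, slide, array, array partner, replicate number, an eBayes trend, the group of KO control replicate 4 and each of 24 samples left out in turn. Each slide had its own scan, so the slide block also stands for the scan. The authors' published comparisons were not used.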

Additional observations from a re-analysis of the deposited data

Results flagged for a closer look

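Of the 54 groups of 4 samples (9 genes in 6 groups), 2 held a sample far from the other 3, both for *Smad1*. Chance gives about 1 in 20, so 2 of 54 is no more than chance gives. KO control replicate 1 had a log2 intensity of 12.19, against 11.81 to 11.87 in the other KO controls. WT day 2 replicate 3 had 12.74 (12.745 before rounding), against 12.97 to 12.99. With any of the 24 samples left out, the *Smad1* rise was 1.02 to 1.09 at day 2 and 1.20 to 1.27 at day 5.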

How the results depend on the processing

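At day 2 and day 5, the 6 calls of *Sox11*, *Smad1*, *Myc*, *Klf5*, *Klf6* and *Klf7* on the average of WT and KO were made in all 15 other settings and with each of 24 samples left out, with the exception of *Klf5* at day 2, which lost its call when probes were averaged. *Sox11* ranged from 2.77 to 3.64 at day 2 and from 2.95 to 3.85 at day 5 over the settings. The count in WT at day 5 was 3 of 9 and became 5 of 9 without background correction, with normexp, with Feature Extraction's processed signals and with slide as a block, which added *Klf5* and *Klf7* each time. With samples left out in turn, the count was 4 to 6 in WT at day 2, 3 to 4 in WT at day 5 and 4 to 5 in KO at each day. The changes of *Egr1* at day 5 (-0.05 to 0.12), of *Klf4* at day 2 (-0.15 to 0.00) and of *Klf4* at day 5 (-0.02 to 0.14), which passed nowhere, changed sign in some settings. KO minus WT and the interaction gave 0 of 9 in every setting. The replicate block gave *Sox11* rises of 3.50 and 3.69 (limma adjusted p = 9.86e-13 and 2.06e-13) and changed no call. Same-numbered samples of different groups had deviations that correlated with a median r of 0.07 (-0.06 to 0.20). Other samples of the same dye had a median of 0.05 (-0.11 to 0.20). These values are small and overlap, so they cannot decide whether the numbers pair the samples. Within arrays the consensus correlation was 0.266, and with array as a random block the WT count at day 5 was 4. Dim probes limit what can be said of the second *Klf5* probe.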
